A study of Mus musculus with 4 samples.

Results

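The replication-dependent histone genes encode the bulk of the histone proteins that package newly copied DNA. Members were taken as all genes of the mouse annotation whose symbol begins Hist1h, Hist2h, Hist3h or Hist4h, the names of the 4 clusters in which these genes lie. The rule found 70 genes among the 55421 gene identifiers in the count tables, of which 67 are annotated as coding and 3 as pseudogenes (Hist3h2bb-ps, Hist1h2aj and Hist1h2al). They comprise 6 genes for the linker histone H1, 20 for H2A, 19 for H2B, 12 for H3 and 13 for H4. Of these genes, 48 had enough counts to be tested and 22 did not. RNA came from wild-type (WT) mice of the C57BL/6 strain on normal chow (NCD, 2 libraries) or on a high-fat diet (HFD, 2 libraries), and all 4 samples carry the label macrophage of islet. The sources used here do not give age, sex, diet composition, length of feeding or the number of animals behind a library. Since the 2 libraries of a diet are not said to be from different mice, the p-values speak only to the spread between them, which could be technical.

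During S phase a cell must make a full new set of histones, and in mouse the messages for them come from these clustered genes. Their mRNAs are the known exception to polyadenylation. In place of a poly(A) tail they end in a short stem-loop, which is bound by the stem-loop binding protein encoded by Slbp and is cut with the help of the U7 small nuclear ribonucleoprotein. H2A, H2B, H3 and H4 form the core around which DNA is wound, and H1 binds the DNA between cores. Cells that have left the cycle draw on variant histones from genes outside the clusters, such as those for H3.3, and some clustered genes can also be read into longer, polyadenylated mRNAs.

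The libraries held 64490097 and 62171973 counts on NCD and 61855337 and 56740720 counts on HFD. Levels are given as counts scaled to library size (CPM) after TMM normalization, whose factors lay between 0.998 and 1.001, and a level compared between genes is further divided by the kilobases (kb) of annotated exon. Against the label macrophage, Ins2, which encodes insulin, stood at 9776 and 9896 CPM on NCD and at 8311 and 8734 CPM on HFD. Adgre1, the macrophage gene for F4/80, stood at 29.5 and 31.9 CPM on NCD and at 26.4 and 24.3 CPM on HFD. In bulk RNA of this kind, fewer cells of a type and less RNA per cell cannot be told apart. Markers of other cell types differed between the diets, where a gene is called at an edgeR adjusted p under 0.05. All 10 B cell and plasma cell markers were called higher on HFD, and their sum was 574 CPM in both NCD libraries and 3764 and 3813 CPM on HFD. All 10 T cell markers were called higher, with sums of 14.9 to 15.7 CPM on NCD and 84.6 to 99.4 CPM on HFD. All 8 fibroblast markers were called higher, with sums of 147 to 150.4 CPM against 1573 to 1574 CPM. All 9 acinar markers were called higher, with sums of 397 to 418 CPM against 2726 to 3093 CPM, and the acinar factor Ptf1a was at 0 in both NCD libraries. Of the 11 macrophage markers 4 were called higher and 5 lower, with sums of 952 to 982 CPM against 901 to 921 CPM. Of the 9 beta and alpha cell markers 2 were called higher and 4 lower, with sums of 26241 to 27146 CPM against 26243 to 27548 CPM. With 1 library left out in turn, 2 macrophage markers were called higher and 2 to 5 lower, and 1 to 2 beta and alpha cell markers higher. The part of these shifts in any histone value was not tested.

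The stem-loop is the known mark of these mRNAs, and its forms are shown because they separate H4 from the other types. A 16-base motif spelled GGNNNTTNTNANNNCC was searched on the sense strand after the stop codon of the annotated transcripts (GENCODE M21, build GRCm38). It was found in 46 of the 67 coding genes, at a median of 31 bases past the stop codon (21 to 58). Of the 21 coding genes without a match, 13 have no annotated base past the stop codon and 4 have 1 to 150 bases. The other 4, Hist1h2bc, Hist2h2be, Hist1h2bq and Hist1h2br, have longer annotated ends, and the first pair of these are among the 4 most counted members. No match says only that these letters are not in the annotated sequence. The 46 matches take 8 forms. In the forms below, capitals mark the 4-base loop and lower case the 6 paired bases on either side.
Hist3h2ba: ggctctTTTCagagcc
Hist1h2bk: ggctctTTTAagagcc
Hist1h4h: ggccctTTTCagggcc
Hist1h4i: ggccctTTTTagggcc
Hist1h4j: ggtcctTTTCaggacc
The form shown for Hist3h2ba, on chromosome 11, was found in 26 genes, namely 3 for H1, 10 for H2A, 8 for H2B and 5 for H3, and Hist1h1c holds it too. The form shown for Hist1h2bk was found in 6 genes. The form shown for Hist1h4h was found in 7 genes, all for H4, and those shown for Hist1h4i and Hist1h4j in 2 H4 genes each. The remaining 3 forms occur in 1 gene each (Hist1h4a, Hist1h3g and Hist2h2ac). All 12 H4 genes with a match open the stem with ggccct or ggtcct, and all 34 other genes open it with ggctct. In all 46 sequences the 6 bases on one side pair with the 6 on the other, of which 3 pairs were fixed by the motif searched.

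The promoters of 3 genes are shown because they belong to the genes on which the diet comparison turns and to a pair sharing a promoter. That pair has the largest gap in CPM per kb of exon among such pairs with a count in both genes. Each promoter shown is the 250 bases before the transcription start, from RefSeq (build GRCm38.p6), with motif matches in capitals. The motifs searched were the TATA box (TATAAA, sense strand), and on both strands the CCAAT box (CCAAT), the octamer of H2A and H2B promoters (ATTTGCAT) and the H1 box (AAACACA), and no matches overlap in the windows shown. Hist1h1c, for a linker histone, is read from the plus strand after chr13:23738557-23738806. Hist1h4h, for H4, is read from the plus strand after chr13:23530794-23531043. Hist1h2ac, for H2A, is read from the minus strand after chr13:23683960-23684209, a window that reaches the annotated start of Hist1h2bc on the other strand.
Hist1h1c: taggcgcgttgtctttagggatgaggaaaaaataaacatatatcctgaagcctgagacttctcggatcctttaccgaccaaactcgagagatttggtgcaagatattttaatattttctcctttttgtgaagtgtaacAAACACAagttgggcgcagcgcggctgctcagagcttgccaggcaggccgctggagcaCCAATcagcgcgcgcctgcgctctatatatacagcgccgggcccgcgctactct
Hist1h4h: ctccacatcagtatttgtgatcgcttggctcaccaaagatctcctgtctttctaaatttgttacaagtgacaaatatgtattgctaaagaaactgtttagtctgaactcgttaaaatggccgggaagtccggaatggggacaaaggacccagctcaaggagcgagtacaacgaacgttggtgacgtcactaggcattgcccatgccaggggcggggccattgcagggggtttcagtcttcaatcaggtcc
Hist1h2ac: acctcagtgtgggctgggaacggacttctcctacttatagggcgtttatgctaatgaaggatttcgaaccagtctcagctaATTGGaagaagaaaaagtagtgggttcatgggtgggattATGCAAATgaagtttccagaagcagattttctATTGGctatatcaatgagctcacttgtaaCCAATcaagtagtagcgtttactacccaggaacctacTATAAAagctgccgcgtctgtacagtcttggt
The Hist1h1c window holds 1 CCAAT box and 1 H1 box. Only exact letters were searched, so the run tatatata in that window is no match to TATAAA. The Hist1h2ac window holds 1 TATA box, 3 CCAAT boxes and 1 octamer, and none of the motifs searched occur in the Hist1h4h window. A window was available for 62 histone genes, and the much counted H2B genes Hist1h2bc and Hist2h2be were among those without one. CCAAT was found in 51 of them (82.3%), against 33.8% of 32851 promoters of all genes, and it was present in all 18 H2A and all 16 H2B windows but in 3 of 12 for H4. The octamer was found in 13 histone windows (20.97%, against 1.60% of all promoters), 7 of H2A and 6 of H2B genes. The H1 box was found in 9 (14.5%, against 6.25%), among them 5 of the 6 H1 genes, and TATAAA in 24 (38.7%, against 7.59%). Windows of H2A and H2B genes that start close together on opposite strands overlap, as for Hist1h2bl and Hist1h2ai. A CCAAT box or octamer there can be counted in both windows, so these counts are not all of separate sites. A match describes the letters and does not show that a factor binds.

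Between the diets few histone genes were called. No member was called higher on HFD and 2 of the 48 tested (4.17%) were called lower, Hist1h1c and Hist1h4h, by edgeR's quasi-likelihood test with Benjamini-Hochberg adjustment over 21563 genes. Over all genes tested 32.4% were called, 17.9% higher and 14.5% lower. At an unadjusted p under 0.05 the same test gave 1 member higher and 2 lower. DESeq2 called 1 member higher, Hist2h3c2 (DESeq2 adjusted p = 0.0247). The 2 NCD and 2 HFD libraries did not overlap for 15 members, 8 with HFD above and 7 with NCD above. That is 31.25% of those tested, against 67.7% of all genes tested.

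Most members were low. The median tested histone gene stood at 0.933 CPM, against 11.7 CPM over all genes tested, and the median standard error (SE) of its log2 change was 0.56, against 0.16. The median log2 change was 0.10 for the histone genes and 0.00 for all genes, with 26 histone genes above 0 and 22 below. Among the 23 histone genes averaging at least 1 CPM, 2 were called and 8 did not overlap. For all genes at that level the shares were 39.7% called and 73.6% without overlap, with a median SE of 0.112 against 0.324 for the histone genes. The 95% interval of the change lay within 2-fold in either direction for 13 of the 48 histone genes, against 52.5% of all genes. It reached a 2-fold rise for 29 and a 2-fold fall for 25, so a missing call does not show that these genes kept their level.

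**Figure D1:**
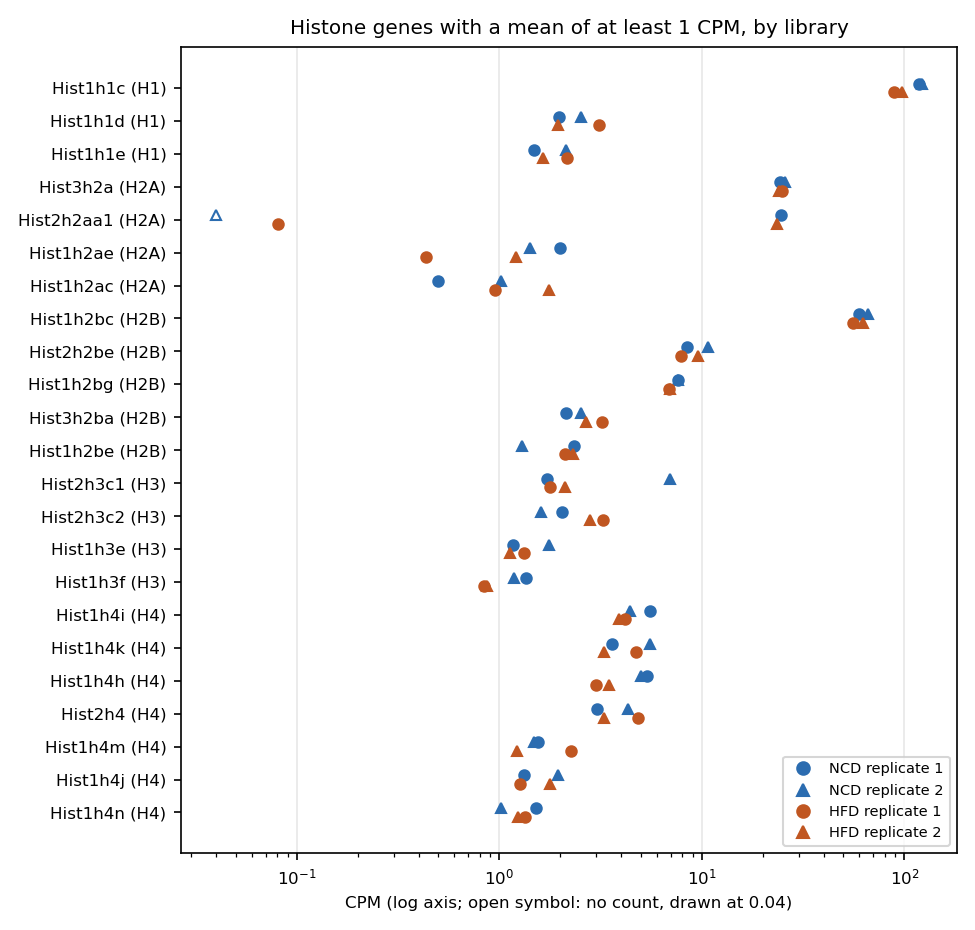
CPM on a log axis of the 23 histone genes averaging at least 1 CPM, 1 symbol per library, blue for NCD and orange for HFD, grouped by histone type. Hist1h1c lies between 88.4 and 122 CPM with both HFD libraries below both NCD libraries, while Hist2h2aa1 has 1 high and 1 low library in each diet; the open symbol marks a library with no count.

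H1 genes were dominated by Hist1h1c (ENSMUSG00000036181, chr13:23738808-23740367, plus strand), which encodes the linker histone H1.2. Its level was 119 and 122 CPM on NCD and 88.4 and 97.5 CPM on HFD. Both HFD libraries lay below both NCD libraries. The level fell by 0.37 on the log2 scale (SE 0.0663, 95% interval -0.54 to -0.20), with an edgeR adjusted p of 0.0105. The call was kept under all 13 alternatives run for this gene, with changes of -0.45 to -0.29 and adjusted p between 4.1e-07 and 0.0417. Hist1h1c shares 8.54% of its 50-base stretches with other genes.

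The other H1 genes were low and none passed the test. Hist1h1d, for H1.3, stood at 1.97 and 2.54 CPM on NCD and at 3.09 and 1.94 CPM on HFD. Hist1h1e, for H1.4, stood at 1.47 and 2.12 CPM against 2.16 and 1.64 CPM. In both genes the diets overlap. Hist1h1e shares 496 exon bases on the same strand with Hist1h2be, so reads from there have no certain owner. Hist1h1a and Hist1h1b lay at 0.547 CPM or below in every library, with log2 changes of -0.45 each. Hist1h1t, the testis linker histone, had no count. The summed H1 level was 122 and 127 CPM on NCD and 93.9 and 102 CPM on HFD, and Hist1h1c made up 95.7% of it. Without Hist1h1c the sums were 3.88 and 5.41 CPM against 5.49 and 4.20 CPM, which overlap.

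Among H2A genes Hist3h2a had the largest share of the sum. Hist3h2a (chr11:58954685-58956830, plus strand) stood at 24.3 and 25.7 CPM on NCD and at 24.8 and 24.2 CPM on HFD. The diets overlap, and the log2 change of -0.03 (95% interval -0.24 to 0.18, edgeR adjusted p = 0.836) lay well inside 2-fold in either direction. Of its exon bases 708 are shared on the same strand with Trim17, whose own counts were 54 and 52 on NCD and 69 and 47 on HFD, against 1566 and 1597, and 1537 and 1368, for Hist3h2a. Hist1h2ae stood at 1.99 and 1.42 CPM on NCD and at 0.436 and 1.20 CPM on HFD. Both HFD libraries were below NCD, but the change of -1.06 (95% interval -2.42 to 0.31) missed the threshold (edgeR adjusted p = 0.206). Hist1h2ac stood at 0.496 and 1.01 CPM against 0.953 and 1.75 CPM, with an overlap.

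Apart from Hist2h2aa1, which is described with the Hist2 locus, the remaining tested H2A genes lay under 1 CPM. Hist1h2ad stood at 0.310 and 0.338 CPM on NCD and at 0.582 and 0.565 CPM on HFD, and Hist1h2ap at 0.109 and 0.0643 CPM against 0.162 and 0.177 CPM. In both, the HFD libraries were above NCD without passing the test (edgeR adjusted p = 0.294 and 0.465). Hist2h2ab and Hist1h2ab lay between 0 and 0.307 CPM with overlapping diets. Of the 20 H2A genes 12 were not tested, namely Hist1h2aa, Hist1h2af, Hist1h2ag, Hist1h2ah, Hist1h2ai, Hist1h2aj, Hist1h2ak, Hist1h2al, Hist1h2an, Hist1h2ao, Hist2h2aa2 and Hist2h2ac. No untested histone gene of any type had more than 34 counts in a library.

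The most abundant H2B genes showed no called change. Hist1h2bc (chr13:23684199-23692908, plus strand) stood at 60.0 and 66.2 CPM on NCD and at 56.0 and 62.5 CPM on HFD. The diets overlap, and the log2 change was -0.09 (95% interval -0.31 to 0.13, edgeR adjusted p = 0.486). Hist2h2be stood at 8.47 and 10.7 CPM against 7.92 and 9.59 CPM, also with an overlap (log2 -0.13, 95% interval -0.59 to 0.32). Hist1h2bg stood at 7.63 and 7.59 CPM on NCD and at 6.87 and 6.94 CPM on HFD. Its diets do not overlap, yet the log2 change of -0.14 (95% interval -0.49 to 0.21) missed the threshold (edgeR adjusted p = 0.500).

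Hist3h2ba stood at 2.14 and 2.53 CPM on NCD and at 3.20 and 2.69 CPM on HFD, with HFD above in both libraries (log2 0.33, edgeR adjusted p = 0.358). Hist1h2be stood at 2.33 and 1.29 CPM against 2.12 and 2.31 CPM, with an overlap. The other tested H2B genes lay at or under 1.37 CPM in every library. Among them Hist1h2bb stood at 0.372 and 0.611 CPM on NCD and at 0.145 and 0.212 CPM on HFD, and gave the largest fall of the type without passing the test (log2 -1.45, edgeR adjusted p = 0.157). Hist1h2bn, Hist1h2bk and Hist1h2bp had both HFD libraries above NCD, with log2 changes of 0.78, 0.79 and 0.98 and edgeR adjusted p of 0.431, 0.500 and 0.408. Hist1h2bh, Hist1h2bq, Hist1h2br, Hist1h2bj, Hist1h2bf and the pseudogene Hist3h2bb-ps overlapped between the diets. Hist1h2ba, Hist1h2bl, Hist1h2bm and Hist2h2bb were not tested. The H2B sum was 84.2 and 92.2 CPM on NCD and 80.3 and 88.1 CPM on HFD, and Hist1h2bc supplied 70.9% of it.

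H3 genes had the lowest summed level per kb of the 5 types. Hist2h3c2 (chr3:96238108-96239127, minus strand) stood at 2.03 and 1.61 CPM on NCD and at 3.23 and 2.81 CPM on HFD. Both HFD libraries were above both NCD libraries, and the log2 change was 0.73 (SE 0.258, 95% interval 0.08 to 1.38), with an edgeR adjusted p of 0.0860. Under the alternatives its adjusted p ran from 0.0247, by DESeq2, to 0.280. Hist2h3c2 shares 63.5% of its 50-base stretches with Gm20634, a transcript described with the Hist2 locus. The part of this sharing in the values of Hist2h3c2 was not tested. Hist2h3c1 stood at 1.72 and 6.95 CPM on NCD and at 1.78 and 2.12 CPM on HFD, so that NCD replicate 2 alone is high. Its log2 change was -1.15 (edgeR adjusted p = 0.235). Without NCD replicate 1 it was -1.84 with an edgeR adjusted p of 0.00833, and without NCD replicate 2 it was 0.17. All of its exon bases are shared with another annotated transcript, described with the Hist2 locus.

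Hist1h3f stood at 1.35 and 1.17 CPM on NCD and at 0.840 and 0.866 CPM on HFD, with NCD above (log2 -0.56, edgeR adjusted p = 0.266). Hist1h3d stood at 0.651 and 0.483 CPM against 0.937 and 0.813 CPM, with HFD above (log2 0.62, edgeR adjusted p = 0.329). These genes of the Hist1 cluster thus pointed in opposite directions, and neither passed the test. Hist1h3e, Hist1h3i, Hist1h3a and Hist1h3g overlapped between the diets, with log2 changes between -0.34 and 0.84. Hist1h3b, Hist1h3c, Hist1h3h and Hist2h3b were not tested. The H3 sum was 8.10 and 13.2 CPM on NCD and 9.21 and 9.50 CPM on HFD, with an overlap.

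H4 had no dominant gene, and the leading one, Hist1h4i, made up 18.7% of the H4 sum. Hist1h4h (ENSMUSG00000060981, chr13:23531050-23531519, plus strand) stood at 5.37 and 5.02 CPM on NCD and at 2.99 and 3.46 CPM on HFD. Both HFD libraries were below both NCD libraries. Hist1h4h shares 45.8% of its 50-base stretches with other genes, and 42.3% with Hist1h4j. The part of this sharing in the values of Hist1h4h was not tested. The level of Hist1h4h fell by 0.69 on the log2 scale (SE 0.19, 95% interval -1.16 to -0.21), with an edgeR adjusted p of 0.0423. The direction was kept under all 13 alternatives (-0.80 to -0.58), but the call was lost under 6 of them. The edgeR adjusted p was 0.161 without HFD replicate 1, 0.0830 without HFD replicate 2, 0.138 without NCD replicate 1, 0.0931 without NCD replicate 2, 0.0666 without a count filter and 0.0790 with a replicate block.

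Hist1h4i stood at 5.55 and 4.39 CPM on NCD and at 4.18 and 3.90 CPM on HFD, with NCD above and no call (log2 -0.30, edgeR adjusted p = 0.324). Hist1h4k stood at 3.61 and 5.57 CPM against 4.72 and 3.27 CPM. Hist2h4 stood at 3.04 and 4.31 CPM against 4.83 and 3.27 CPM. In the last pair of genes the diets overlap, and their log2 changes were -0.20 and 0.14. Hist1h4m, Hist1h4j and Hist1h4n lay between 1.01 and 2.26 CPM with overlapping diets and log2 changes of 0.20, -0.10 and 0.02. Hist1h4d, Hist1h4b, Hist1h4c and Hist1h4a lay between 0.225 and 1.29 CPM, also with an overlap. Hist4h4, the only gene of its cluster, stood at 0.279 and 0 CPM on NCD and at 0 and 0.371 CPM on HFD. Hist1h4f was not tested. The H4 sum was 25.1 and 25.9 CPM on NCD and 24.0 and 21.7 CPM on HFD, with both HFD libraries below.

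**Figure D2:**
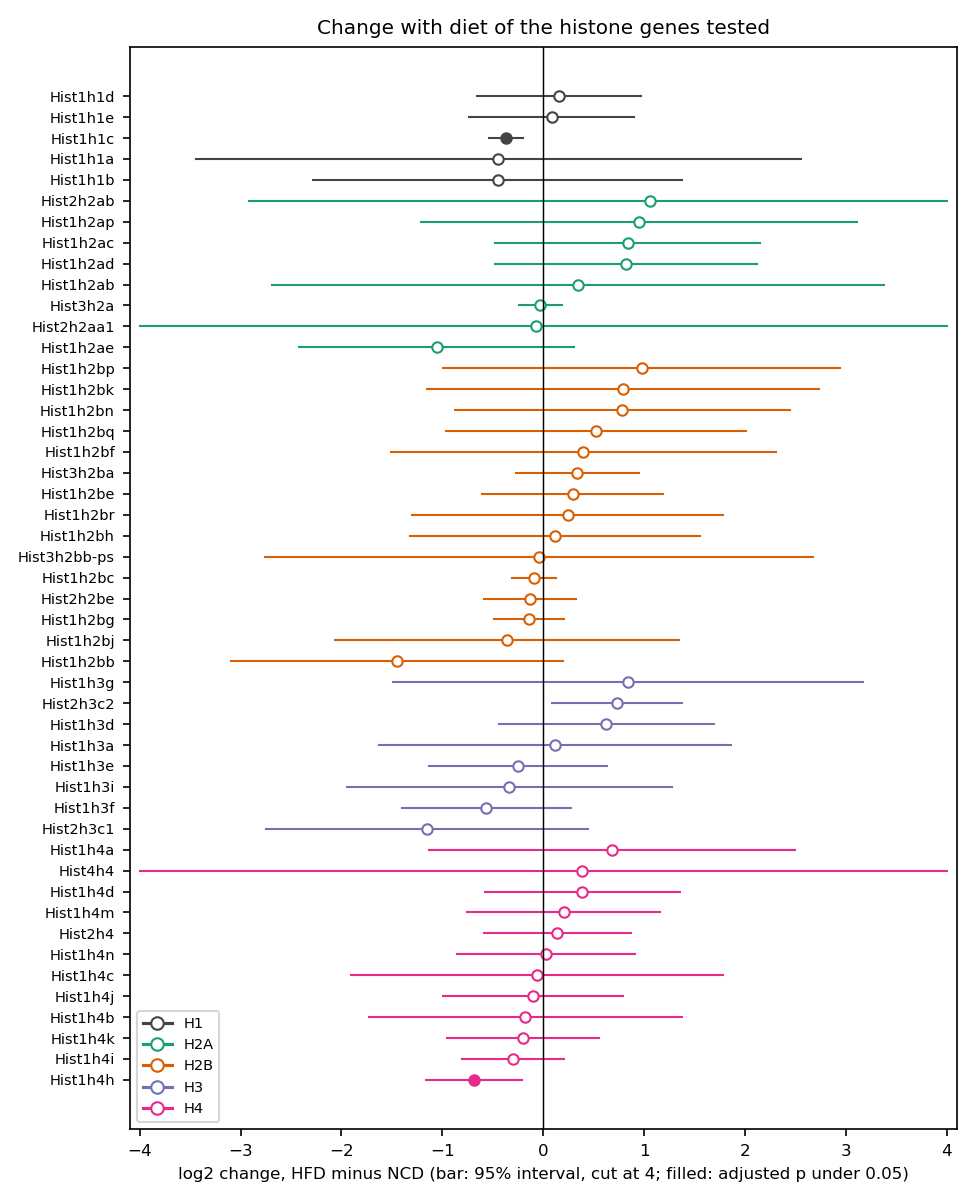
Log2 change, HFD minus NCD, of the 48 tested histone genes by type, with 95% intervals cut at 4 on either side. Filled symbols are the genes with an edgeR adjusted p under 0.05, Hist1h1c at -0.37 and Hist1h4h at -0.69; intervals are narrow for Hist1h1c, Hist3h2a and Hist1h2bc and wide for most others.

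Summed by cluster, the Hist1 genes on chromosome 13 stood at 225 and 235 CPM on NCD and at 189.5 and 204 CPM on HFD, a log2 ratio of -0.23. Both HFD sums were below both NCD sums, and Hist1h1c made up 49.9% of the cluster. Without it the log2 ratio was -0.09. The Hist1 cluster spans 2219 kb (chr13:21715763-23934851) with 56 members, 38 tested, and its genes fall into blocks separated by a gap of 1487 kb. The Hist3 cluster on chromosome 11 stood at 26.5 and 28.6 CPM on NCD and at 28.1 and 27.2 CPM on HFD. The Hist2 cluster on chromosome 3 stood at 40.7 and 23.6 CPM against 18.2 and 42.0 CPM. Both of these overlap between the diets. A sum of 2 against 2 libraries cannot reach a two-sided exact permutation p below 0.333, so no p is given for the sums.

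Over all 70 members the summed level was 293 and 288 CPM on NCD and 236 and 274 CPM on HFD. Both HFD libraries lay below both NCD libraries. Without Hist1h1c, which made up 39.1% of the sum, it was 174 and 166 CPM against 147 and 176 CPM, and the diets overlap. Of the raw counts, 18884 and 17880 on NCD and 14597 and 15483 on HFD fell on these genes, which is between 0.0236% and 0.0293% of a library. Hist1h1c, Hist1h2bc, Hist3h2a and Hist2h2be together held 70.8% to 78.0% of them.

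The spread of the H2A sum between libraries, and part of that of the Hist2 sum, came from Hist2h2aa1. Hist2h2aa1 (chr3:96245497-96246082, plus strand) had 1593 and 0 counts on NCD and 5 and 1332 counts on HFD. In each diet 1 library is high and the other is at or near 0, and the fitted log2 change of -0.07 has a 95% interval of -5.68 to 5.54. Among the 21563 genes tested, 30 had at least 100 counts in 1 library of a diet and at least 100-fold fewer in the other, a count of 0 being taken as 1, and 7 did so in both diets. Hist2h2aa1 was the only histone gene among them at this limit, and Hist4h4 and Hist2h2ab, with a library at 0, had too few counts to reach it. The H2A sum was 53.0 and 29.2 CPM on NCD and 28.3 and 52.5 CPM on HFD. Without Hist2h2aa1 it was 28.3 and 29.2 CPM against 28.2 and 29.0 CPM, and the 4 libraries differed by a factor of at most 1.03. The Hist2 sum without it was 15.99 and 23.6 CPM against 18.1 and 18.5 CPM, and still differed by a factor of 1.48 between libraries, with the H3 gene Hist2h3c1 high in NCD replicate 2.

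This gene lies where several annotated transcripts share sequence. Gm20634, a transcript on the same strand, covers 529 of the 586 exon bases of Hist2h2aa1 and all 1825 exon bases of the H3 gene Hist2h3c1. Its counts were 219 and 0 on NCD and 1873 and 238 on HFD. Gm20634 is thus high in HFD replicate 1, where Hist2h2aa1 has 5 counts, and Hist2h3c1 is high in NCD replicate 2, where both of the others have none. Hist2h3c1 had 111 and 432 counts on NCD and 110 and 120 counts on HFD. Hist2h2aa1 and Gm20634 together had 1812 and 0 counts on NCD and 1878 and 1570 counts on HFD. With Hist2h3c1 the sums were 1923 and 432 against 1988 and 1690. NCD replicate 2 is lowest under either sum, and the other 3 libraries are close to each other. Hist2h2aa2, whose coding sequence is identical to that of Hist2h2aa1, had 33 counts in NCD replicate 1 and none in the others. The H3 gene Hist2h3c2, on the opposite strand, shares 63.5% of its 50-base stretches with Gm20634. The sources used here do not give the strand setting or say how reads matching more than 1 of these genes were assigned. The part of either in these values was not tested.

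**Figure D3:**
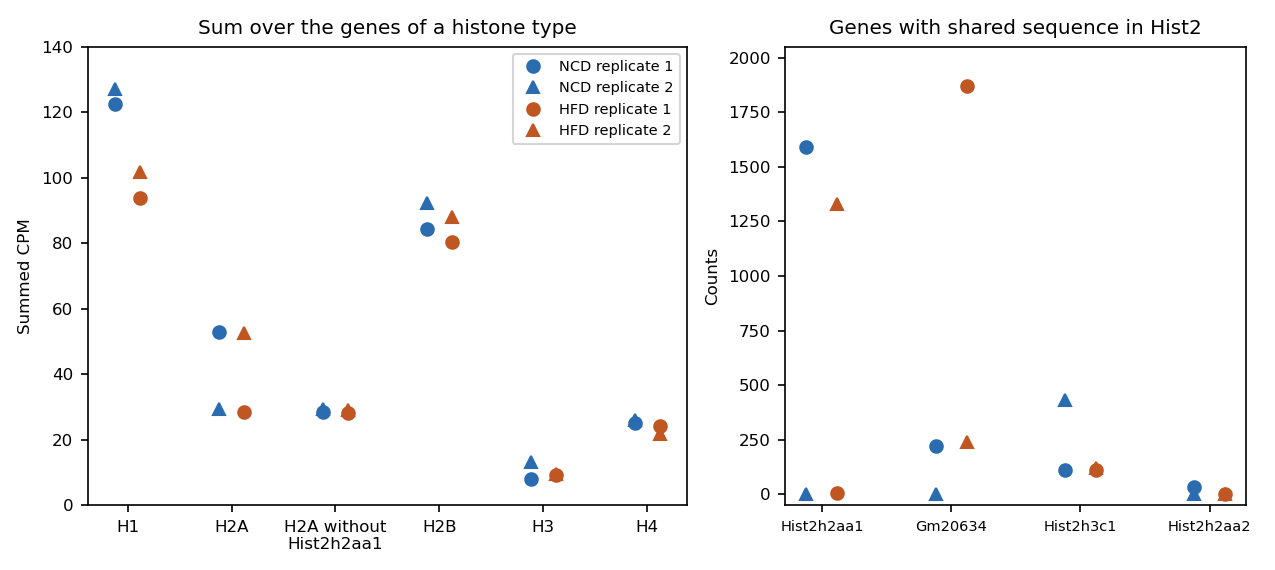
Left, summed CPM of each histone type in the 4 libraries, with H2A shown with and without Hist2h2aa1. Right, raw counts of 4 genes of the Hist2 locus with shared sequence; the H2A sums fall together at 28.2 to 29.2 CPM once Hist2h2aa1 is left out, and the libraries that are high differ from gene to gene.

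Near-identical copies are common in the family and limit what is known of single members. Of the 70 genes, 34 share at least 50% of their 50-base stretches with another annotated gene, 9 share at least 90% and 4 share none. Exon bases are shared on the same strand with another gene by 7 members and on the opposite strand by 23. At the protein level the 13 H4 genes encode 1 protein of 103 residues through 12 distinct coding sequences. For H2A, 9 genes encode an identical protein. For H3 there are groups of 7 and of 4 genes with identical proteins of 136 residues, and for H2B groups of 4, 3 and 2.

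Copies with an identical protein were therefore also summed and tested as 1 row. The H4 protein gave a log2 change of -0.16 (SE 0.0942, edgeR adjusted p = 0.274). The H2B protein of Hist1h2bg, Hist1h2be and Hist1h2bc stood at 69.9 and 75.0 CPM on NCD and at 65.0 and 71.7 CPM on HFD, with an overlap (log2 -0.08, edgeR adjusted p = 0.463). The H3 protein of 7 genes, led by Hist2h3c2, stood at 5.37 and 5.39 CPM on NCD and at 6.62 and 6.41 CPM on HFD, with HFD above (log2 0.28, edgeR adjusted p = 0.230). This row leaves out Hist2h3c1, whose longest annotated protein has 181 residues and formed a row of its own. Hist2h3c1 stood at 1.72 and 6.95 CPM on NCD and at 1.78 and 2.12 CPM on HFD. The sum over all H3 genes, which includes it, overlapped between the diets. The H3 protein of 4 genes, led by Hist1h3i, stood at 1.01 and 0.820 CPM against 0.808 and 0.972 CPM. The H2A protein of 9 genes, led by Hist1h2ae, stood at 3.20 and 3.41 CPM against 2.73 and 4.22 CPM. Both of these overlap. In this fit Hist1h1c, which has no identical copy, was the 1 histone row called lower, and none was called higher.

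Per kb of exon, histone genes differed far more among themselves than between diets. Hist1h1c was highest at 68.3 CPM per kb, followed by Hist1h2bc at 52.9, Hist2h2aa1 at 20.6, Hist1h4k at 13.8, Hist1h2bg at 11.7, Hist3h2a at 11.5 and Hist1h4h at 8.96 CPM per kb. Summed per kb, H2B reached 78.3, H1 70.3, H4 44.4, H2A 37.8 and H3 9.78 CPM per kb.

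Genes with a long annotated 3′ end held most of the counts. A length of 150 bases past the stop codon, chosen after the values were seen, separates 28 coding genes with a longer end from 39 with a shorter one. The longer set had a median of 0.926 CPM per kb (0 to 68.3) and held 89.3% of the counts on the family, or 93.3% without Hist2h2aa1. The shorter set had a median of 0.306 CPM per kb (0 to 20.6) and held 10.7%, or 6.56% without Hist2h2aa1. The ranges of the sets overlap. Hist1h1c has 880 annotated bases past the stop codon and Hist1h2bc 742, while Hist1h4k has none and still ranks among the highest per kb. The sources used here do not say whether poly(A)-selected or rRNA-depleted RNA was used. The part of the library method in these levels was not tested.

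**Figure D4:**
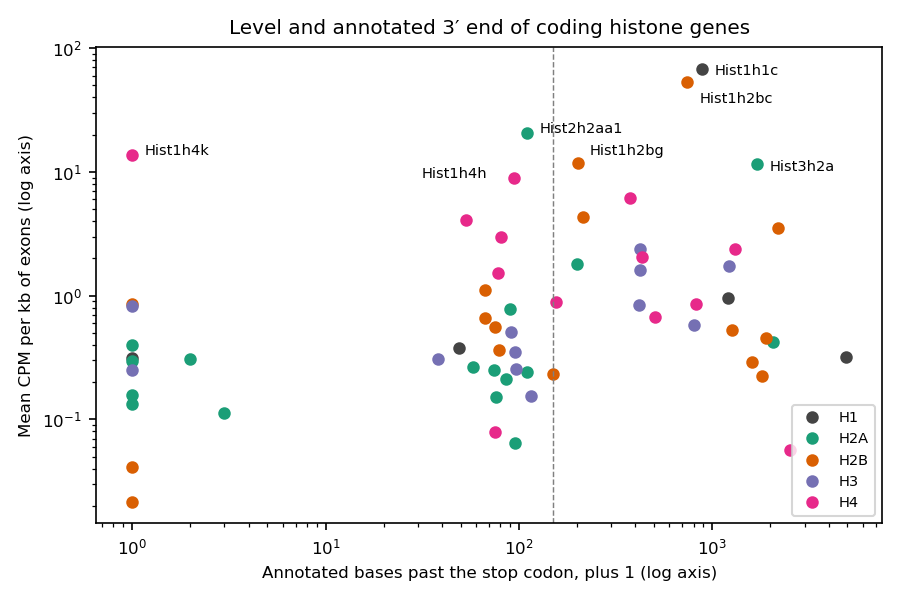
Mean CPM per kb of exon over the 4 libraries against the number of annotated bases past the stop codon, plus 1, both on log axes, for the coding histone genes with a count, colored by type. The dashed line marks 150 bases; Hist1h1c and Hist1h2bc lie at the top right at 68.3 and 52.9 CPM per kb, and genes without a count are left out.

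Genes that face each other across a common promoter region ranged from near-equal to far apart in level. In 15 pairs the annotated starts lie less than 1000 bases apart on opposite strands, and 14 of them join an H2A with an H2B gene. In the window printed for Hist1h2ac, 251 bases separate it from Hist1h2bc, and the levels were 0.424 and 52.9 CPM per kb, a 125-fold difference. This fold depends on the annotated exon lengths, 2482 and 1156 bases. Before division by them the means over the 4 libraries were 1.05 and 61.2 CPM. Hist2h2ac and Hist2h2be are 239 bases apart, and Hist2h2ac had 0 to 4 counts in a library, which is under the floor of 12 counts, while Hist2h2be had 490 to 667. Hist3h2bb-ps and Hist3h2a, 173 bases apart, differed 23.4-fold. Hist1h2ae and Hist1h2bg, 176 bases apart, differed 6.56-fold. Hist1h2bf and Hist1h2ad, at 0.553 and 0.784 CPM per kb, differed 1.42-fold. The Hist1h2ap/Hist1h2br, Hist1h2bq/Hist1h2ao, Hist1h2bh/Hist1h3f and Hist1h2an/Hist1h2bp pairs differed 1.19-, 1.36-, 1.58- and 1.76-fold. Of these genes, Hist1h2ap, Hist1h2ao and Hist1h2an lay under the floor in every library. The remaining pairs with a count in both genes differed 3.22-fold to 9.52-fold, and each held a gene under the floor in every library.

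Of 11 histone variants made from genes outside the clusters, 2 were called higher, 2 lower and 7 did not pass, with a median log2 change of 0.07, a share near the 32.4% called over all genes. H3f3b, for H3.3, stood at 291 and 293 CPM on NCD and at 391 and 410 CPM on HFD. Both HFD libraries were higher (log2 0.46, SE 0.0425, edgeR adjusted p = 0.00115), and the call was kept under all alternatives. H3f3a, the other H3.3 gene, stood at 192 and 214 CPM against 252 and 235 CPM (log2 0.26, edgeR adjusted p = 0.0361). H1f0, the linker histone of resting cells, stood at 197 and 197 CPM against 163 and 168 CPM, so that it fell, as Hist1h1c did (log2 -0.25, edgeR adjusted p = 0.0106). H2afy, for macroH2A, stood at 187 and 191 CPM against 166 and 168 CPM (log2 -0.18, edgeR adjusted p = 0.0298).

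With 1 library left out in turn, 1 to 3 variants were called higher and 0 to 1 lower. Without HFD replicate 1, HFD replicate 2, NCD replicate 1 or NCD replicate 2, the edgeR adjusted p of H2afy was 0.133, 0.0910, 0.0768 and 0.103. That of H3f3a was 0.128 without HFD replicate 1, 0.0577 without HFD replicate 2 and 0.109 without NCD replicate 1, and that of H1f0 was 0.0615 without HFD replicate 1. H2afz, for H2A.Z, did not pass the test at 173 and 184 CPM on NCD and 202 and 171 CPM on HFD. H2afv, the other H2A.Z gene, H2afj, H2afx, whose product marks DNA breaks, and H2afy2 did not pass either, with log2 changes of 0.14, 0.06, -0.15 and -0.26. Cenpa, the H3 variant of centromeres, stood at 4.58 and 1.93 CPM against 9.48 and 6.77 CPM (log2 1.32, edgeR adjusted p = 0.0679). H1fx had no count in NCD replicate 2 and 2.81 CPM in NCD replicate 1, against 2.18 and 1.70 CPM on HFD. Per kb the variants H3f3b, H2afz and H1f0 stood at 116, 103 and 88.2 CPM per kb, above the 68.3 of Hist1h1c.

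Of 16 factors that make and end histone mRNA, 3 were called higher, 4 lower and 9 did not pass, with a median log2 change of 0.04. Over all genes tested 17.9% were called higher and 14.5% lower. The share of factors called higher is near that background and the share called lower is above it, on 16 genes and without a test. Slbp, whose protein binds the stem-loop, stood at 23.9 and 25.8 CPM on NCD and at 29.9 and 36.5 CPM on HFD. Both HFD libraries were higher (log2 0.42, edgeR adjusted p = 0.0489), but the call was lost without HFD replicate 2, NCD replicate 1 or NCD replicate 2, at adjusted p of 0.195, 0.166 and 0.0938. Lsm10, a component of the U7 particle, stood at 21.9 and 22.4 CPM against 17.5 and 17.5 CPM (log2 -0.34, edgeR adjusted p = 0.0395). Its adjusted p lay between 0.104 and 0.139 when any 1 library was left out. Lsm11, its partner, did not pass the test (log2 0.22), nor did Npat, the activator of histone gene transcription (log2 0.02), or Casp8ap2, which acts in 3′ processing (log2 0.21, edgeR adjusted p = 0.0859). With 1 library left out in turn, 1 to 2 factors were called higher and 1 to 2 lower.

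Histone chaperones, which carry histones to DNA, had 1 gene called higher, 4 lower and 13 that did not pass of 18, with a median log2 change of -0.05, which is also near the 32.4% called over all genes. Nasp stood at 38.2 and 38.6 CPM on NCD and at 47.0 and 49.0 CPM on HFD (log2 0.32, edgeR adjusted p = 0.0173). Its adjusted p was 0.0925 without HFD replicate 2, 0.0755 without NCD replicate 1 and 0.0663 without NCD replicate 2. Ipo4, an importin for H3 and H4, stood at 116 and 125 CPM against 94.7 and 97.9 CPM (log2 -0.33, edgeR adjusted p = 0.0118), and its adjusted p was 0.0586 without HFD replicate 1. Without HFD replicate 1 or HFD replicate 2 there were 2 chaperones called lower, and without HFD replicate 2 or NCD replicate 2 none called higher. The replication-coupled chaperone genes Chaf1a, Chaf1b and Asf1b did not pass the test, with log2 changes of -0.17, -0.24 and 0.45.

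Of 25 S phase genes 10 were called higher, 2 lower and 13 did not pass, where 17.9% of all genes were called higher and 14.5% lower. Their sum was 462 and 480 CPM on NCD and 597 CPM in both HFD libraries. Mcm5, of the replicative helicase, stood at 8.53 and 8.99 CPM against 20.6 and 20.6 CPM (log2 1.23, edgeR adjusted p = 0.000945). Uhrf1 gave the largest rise (log2 1.52, edgeR adjusted p = 0.00489). Pcna, the sliding clamp, stood at 86.6 and 92.1 CPM against 122 and 116 CPM (log2 0.41, edgeR adjusted p = 0.00565). Fen1, the flap nuclease, gave the largest fall, from 13.8 and 13.8 CPM to 9.05 and 7.91 CPM (log2 -0.70, edgeR adjusted p = 0.0119). Rrm2, of ribonucleotide reductase, was called higher (log2 0.76, edgeR adjusted p = 0.0174), with adjusted p of 0.0690 without HFD replicate 1 and 0.0588 without NCD replicate 1. With any 1 library left out, 1 S phase gene was called lower.

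Of 14 genes of G2 and mitosis 10 were called higher, none lower and 4 did not pass, against 17.9% of all genes called higher. Their sum was 61.2 and 62.4 CPM on NCD and 133 and 129 CPM on HFD, and their median log2 change was 1.03. Mki67, the proliferation marker, stood at 25.5 and 22.7 CPM against 56.7 and 53.0 CPM (log2 1.19, edgeR adjusted p = 0.000584). Top2a stood at 10.6 and 12.8 CPM against 24.3 and 26.2 CPM (log2 1.11, edgeR adjusted p = 0.00249). Cdk1 and Ccna2 were also called higher (log2 1.53 and 0.89, edgeR adjusted p = 0.0285 and 0.0173). Without HFD replicate 1 their adjusted p were 0.100 and 0.0717, without HFD replicate 2 they were 0.0680 and 0.0503, and without NCD replicate 2 that of Ccna2 was 0.0632. The count of genes called higher was 3 without HFD replicate 1, 5 without HFD replicate 2 and 6 without NCD replicate 2. These values stand beside those of the histone genes, and whether the histone genes differ from the cell cycle genes in their change was not tested.

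**Figure D5:**
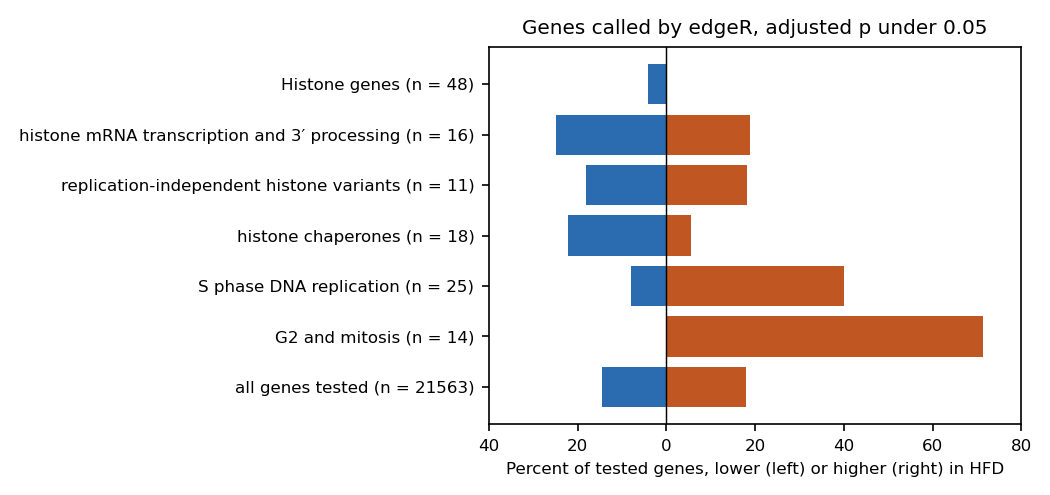
Percent of the tested genes in each list called by edgeR at an adjusted p under 0.05, to the left of 0 for lower and to the right for higher on HFD. The 48 histone genes have 0 called higher and 2 lower, while 10 of 25 S phase genes and 10 of 14 genes of G2 and mitosis were called higher; the lowest bar gives all 21563 genes tested, with 17.9% higher and 14.5% lower.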

How the data were processed

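Total RNA of 4 libraries was sequenced. Per the labels' protocols, islets were snap-frozen, RNA was taken with TRIzol and libraries came from a stranded KAPA kit. The authors deposited a table of whole-number gene counts for each library. The submitters' processing notes name HISAT, featureCounts 1.5.0, DESeq 1.8.3 and build GRCm38, without roles. The sources used here do not give the strand setting or the handling of multi-mapping reads. Titles gave the diet and replicate number of each sample.

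Symbols, exons and transcripts were taken from GENCODE M21, which named 55154 of 55421 identifiers. Counts were tested in R 4.3.3 with edgeR 4.0.16 (filterByExpr with a minimum count of 10, TMM, quasi-likelihood F test, no replicate block, Benjamini-Hochberg adjusted p under 0.05). The common biological coefficient of variation was 19.1%. Intervals are 95% intervals of that fit, and sums over genes use the TMM-scaled library sizes. Totals of 56740720 to 64490097 counts set the precision. Low counts sat at multiples of 4 more often than at neighbouring values, by a factor of 1.64 to 1.74, so what a count stands for is unsure. A floor of 3 such steps, 12 counts, is 0.186 to 0.212 CPM. It covers counting error only, since reads lacking molecular identifiers need not be separate molecules.

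The labels do not say whether the replicate numbers pair the libraries. Deviations of the replicate 1 libraries from their diet means correlated at -0.0326 between the diets, which cannot settle it with 2 libraries per diet. Every tested histone gene is named. The other genes named were those of fixed names, with the largest called rise and fall of each list for the lists described. The members and lists were chosen with earlier results of these data known. Alternatives were 3 other scalings, DESeq2 1.42.0, limma-voom (limma 3.58.1), other count filters, counts divided by 4, a replicate block, identical proteins summed and leaving out each library. Leaving out Hist2h2aa1, or Hist1h1c from the sum over all members, was chosen after their values were seen. Where a diet kept 1 library, it was assumed to vary like the other diet.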

Additional observations from a re-analysis of the deposited data

How the results depend on the processing

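Hist1h1c kept its call under all 13 alternatives run for it, and Hist1h4h its direction but not its call under 6 of 13. No histone gene was called higher except 1 by DESeq2. Among histone genes 1 in place of 2 was called lower with identical copies summed and with no count filter. By DESeq2, 5 processing factors and 2 chaperones were called higher. With no count filter, 1 variant, 2 macrophage markers and 1 beta or alpha cell marker were called higher. Without its most counted member the log2 ratio of sums was 0.063 for H1, 0.24 for H3, -0.088 for Hist1 and 0.30 for Hist3, and that over all members without Hist1h1c was -0.073 in place of -0.19. The causes were not tested.

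Since the labels do not say whether the replicate numbers pair the libraries, a replicate block was run as an alternative. With the block 1 histone gene was called lower, 1 S phase gene lower and 2 macrophage markers higher. The block gave log2 changes of -0.046 for Hist1h2bh, 0.21 for Hist1h4c and 0.072 for Hist2h2aa1, where limma-voom gave -0.037, 0.24 and 1.44, with the sign opposite to that reported and no call.

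With 1 library left out in turn, calls ranged from 2015 to 2174 lower for all genes and from 1 to 2 lower for histone genes. They ranged from 1 to 2 higher and 1 to 2 lower for processing factors, 1 to 3 higher and 0 to 1 lower for variants, 0 to 1 higher and 2 to 5 lower for chaperones, 1 lower for S phase, 3 to 7 higher for G2 and mitosis, 2 higher and 2 to 5 lower for macrophages, and 1 to 2 higher for beta and alpha cells. Log2 ratios ranged from -0.49 to 0.21 for H3 and from -0.82 to 0.39 for Hist2. Single genes without a call crossed 0 when a library was left out: Hist3h2bb-ps -1.50 to 1.25, Hist3h2a -0.070 to 0.0063, Hist1h4j -0.38 to 0.20, Hist1h4k -0.48 to 0.14, Hist1h1b -0.81 to 0.011, Hist1h3i -0.72 to 0.025, Hist1h4m -0.31 to 0.57, Hist1h4n -0.24 to 0.34, Hist1h2br -0.19 to 0.85, Hist1h2bj -1.15 to 0.21, Hist1h3g -0.049 to 1.56, Hist1h2bh -0.83 to 0.68, Hist1h1d -0.21 to 0.45, Hist1h3e -0.51 to 0.072, Hist1h2bf -0.070 to 0.99, Hist1h2be -0.077 to 0.78, Hist1h1e -0.16 to 0.36, Hist1h4c -0.74 to 1.25, Hist1h2ab -0.93 to 2.01, Hist1h4b -1.06 to 0.38, Hist1h4a -0.19 to 1.29, Hist1h3a -0.31 to 0.45, Hist1h1a -2.28 to 1.31, Hist2h2be -0.30 to 0.041, Hist2h2aa1 -7.23 to 12.47, Hist2h3c1 -1.84 to 0.17, Hist2h4 -0.16 to 0.41, Hist4h4 -6.16 to 6.49, Npat -0.036 to 0.073, Chaf1a -0.38 to 0.011, H1fx -0.54 to 9.87, H2afj -0.030 to 0.15 and H2afz -0.053 to 0.18.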
